A study of Mus musculus with 3 samples.

Results

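The iron transport and ferritin genes are 10 genes chosen by symbol, of 17633 genes with reads in any germ layer of the E7.5 mouse embryo. They are *Trf*, *Tfrc*, *Slc11a2* and *Slc39a14* for uptake, *Fth1* and *Ftl1* for storage, *Hmox1* for release of iron from haem, and *Slc40a1*, *Heph* and *Cp* for export. All 10 were found in the deposited tables under these symbols. The libraries were made from the endoderm, mesoderm and epiblast of ICR mouse embryos at E7.5, and the labels name no treatment and no altered allele. The embryonic region was cut off, treated with trypsin and pancreatin and separated by hand into its layers, and RNA of many embryos was pooled, so that each germ layer is 1 library. The differences below therefore have no replicate check, and their intervals cover the counting of reads only. The epiblast sample also takes in the primitive streak and the early neuroectoderm.

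Reads counted on genes summed to between 40.8 M (mesoderm) and 42.7 M (epiblast) per library. RPKM is the number of reads of a gene scaled to its length and to this total, so it allows levels of different genes to be compared. A gene was called different between 2 libraries with RPKM>5 in at least 1 of them, Fold Change>2 and FDR<0.001 by the Audic and Claverie exact test, which compares 2 libraries and not 2 conditions. In bulk RNA, a change in the number of cells of a type and a change in RNA per cell cannot be told apart.

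Iron circulates bound to transferrin, which enters cells with the transferrin receptor and releases iron in acid endosomes, from where the transporter encoded by *Slc11a2* (DMT1) carries it into the cytosol. Iron that is not used is stored inside ferritin, a hollow shell of heavy chains, which oxidize iron, and light chains, which help it to mineralize. Ferroportin, encoded by *Slc40a1*, is the exporter of iron from cells. The visceral endoderm covers the embryo at this stage, takes up maternal nutrients and secretes proteins that the liver makes later, transferrin among them. Iron regulatory proteins bind a hairpin called the iron-responsive element in the mRNA when iron is scarce. In the 5′ UTR this blocks translation, as in ferritin, and in the 3′ UTR it protects the mRNA, as in the transferrin receptor.

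The iron-responsive elements are shown first because their place bears on what read counts can report. Control through an element in the 5′ UTR acts on translation, which read counts do not report. Control through one in the 3′ UTR acts on mRNA stability. The coding transcripts of GENCODE M21 (GRCm38) were searched, on their own strand, for a C, 5 bases, the loop CAGTGN with N other than G, and 5 bases that pair with the first 5, counting G with T as a pair. Of the genes with an annotated 5′ UTR 0.110% held such a match there, and of those with a 3′ UTR 0.461% held one. Among the 10 genes, *Fth1*, *Ftl1* and *Slc40a1* each had 1 match in the 5′ UTR, in exon 1, and *Tfrc* had 4 in the 3′ UTR, in exon 19. Each run of 30 bases below is given 5′ to 3′ with the loop in capitals, and with T for U as in the transcript file.
Fth1, 5′ UTR, chr19:9982732-9982761, + strand: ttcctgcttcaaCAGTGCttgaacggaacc
Ftl1, 5′ UTR, chr7:45459778-45459807, - strand: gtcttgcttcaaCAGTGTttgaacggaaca
Slc40a1, 5′ UTR, chr1:45925464-45925493, - strand: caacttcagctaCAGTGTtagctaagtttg
Tfrc, 3′ UTR, chr16:32631219-32631248, + strand: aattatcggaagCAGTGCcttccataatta
Tfrc, 3′ UTR, chr16:32631598-32631627, + strand: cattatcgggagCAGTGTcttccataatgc
Tfrc, 3′ UTR, chr16:32631663-32631692, + strand: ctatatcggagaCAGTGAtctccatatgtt
Tfrc, 3′ UTR, chr16:32631710-32631739, + strand: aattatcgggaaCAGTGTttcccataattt

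With 4 of the 5 pairs required, *Slc11a2* had a match in the 3′ UTR of at least 1 of its annotated transcripts, and *Heph* had one inside its coding sequence. The *Slc11a2* match is shown because it lies where this mRNA is known to carry an element, and the reads per gene do not separate the transcripts with and without it. *Trf*, *Slc39a14*, *Hmox1* and *Cp* held no match by either rule. A match describes letters of the transcript and not binding.
Slc11a2, 3′ UTR, chr15:100395152-100395181, - strand: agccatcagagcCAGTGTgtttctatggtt

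**Figure D1:**
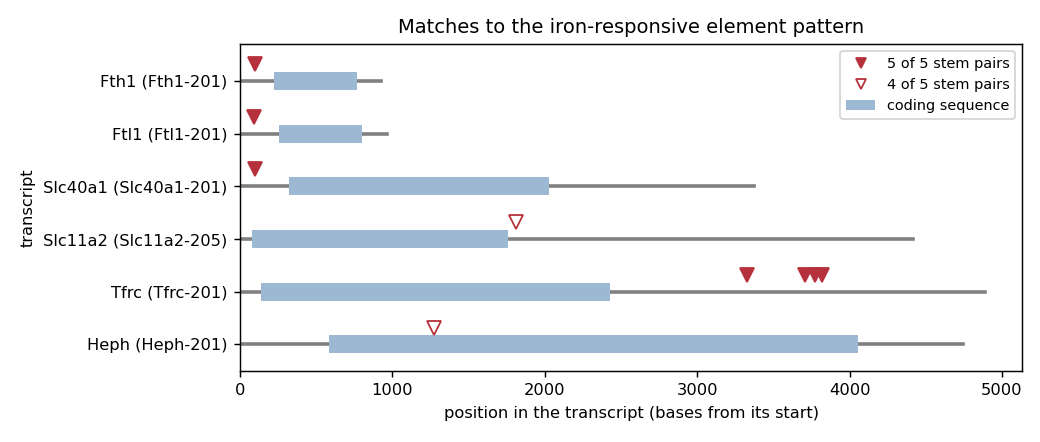
Each line is 1 annotated transcript from its first to its last base, the bar is its coding sequence, and triangles mark the loop of each match (filled, 5 of 5 stem pairs; open, 4 of 5). Matches in Fth1, Ftl1 and Slc40a1 lie 90 to 102 bases from the transcript start, and the 4 in Tfrc lie behind the coding sequence.

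Label genes went with the labels. All 5 genes listed for epiblast and all 5 for mesoderm had their highest RPKM there, and so did 4 of the 5 for endoderm, the exception being *Gata6*, which was highest in mesoderm. The 9 markers of visceral endoderm summed to an RPKM of 6454 in endoderm, against 4.77 in mesoderm and 4.04 in epiblast, each of them highest in endoderm. The trophoblast list had 1374 reads in endoderm, then 289 in mesoderm and 66 in epiblast, with 3 of its 6 genes not listed in any library (*Tpbpa*, *Prl3d1*, *Prl2c2*). The 5 parietal endoderm genes had 24674, 17015 and 6270 reads in the same order. Of these reads 15840, 8997 and 4873 were of *Sparc*. By RPKM 3 of the 5 were highest in endoderm and 2, *Lama1* and *Thbd*, in mesoderm. The erythroid list was highest in mesoderm, with 2629 reads against 293 in endoderm and 150 in epiblast, and most of the mesoderm reads (2259) were of *Tal1*, which endothelial progenitors also express, while *Hbb-y* and *Hba-x* were not listed. The macrophage list, of cells rich in *Hmox1* and *Slc40a1* in the adult, had between 43 and 96 reads in each layer, and *Cd163* and *Lyz2* were not listed. The decidua list was lowest in endoderm (178 reads, against 783 in mesoderm and 683 in epiblast). The part of these cells in the results below was not tested.

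Iron genes were higher in endoderm where they were called. Between endoderm and mesoderm 5 of the 10 were called, *Trf*, *Slc40a1*, *Fth1*, *Slc39a14* and *Hmox1*, each higher in endoderm. Of all genes with a read in either library 7.44% were called higher in endoderm and 4.41% higher in mesoderm. Among genes with RPKM>5, which 8 of the 10 reached, these shares were 14.4% and 8.56%. Between endoderm and epiblast *Trf*, *Slc40a1*, *Fth1*, *Hmox1* and *Slc39a14* were again called higher in endoderm. The background was 8.02% of genes called higher in endoderm and 4.58% higher in epiblast, or 15.7% and 8.94% of genes with RPKM>5. The comparisons share the endoderm library and are not independent. In edgeR's exact test with an assumed coefficient of variation of 0.2 between replicates *Hmox1* and *Slc39a14* lost both calls, and with 0.4 *Fth1* did too, whereas *Trf* and *Slc40a1* kept theirs. No iron gene was called between mesoderm and epiblast, where 2.58% of genes were called higher in mesoderm and 2.45% higher in epiblast, or 5.30% and 5.02% of those with RPKM>5, which 5 of the 10 reached. For that pair 6 of the 10 passed the FDR criterion of the Audic and Claverie exact test, but none combined this with the other criteria. For endoderm to mesoderm the median log2 ratio was 1.26 over the 9 iron genes with RPKM>1 in either library and -0.10 over all such genes. For endoderm to epiblast it was 1.06 over 9 iron genes and -0.08 over all, and for mesoderm to epiblast it was -0.05 over 7 and 0.01 over all.

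**Figure D2:**
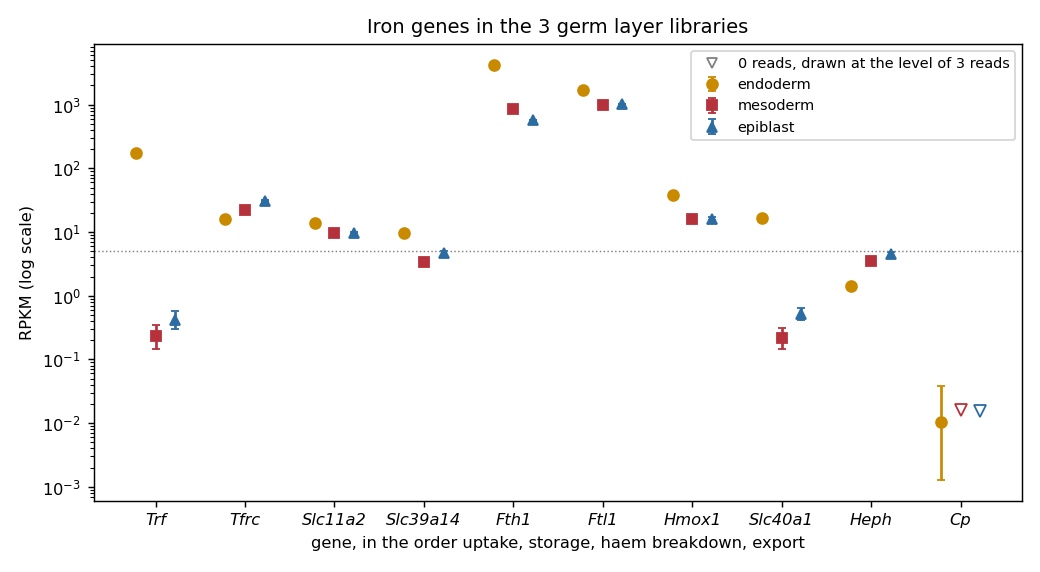
RPKM of each iron gene on a log axis, 1 point per germ layer library, with bars for the 95% exact binomial interval of the reads (often smaller than the point) and a dotted line at RPKM 5. Trf and Slc40a1 stand far above the other layers in endoderm, and Tfrc and Heph run the other way. Cp, drawn near the level of 3 reads, had only 2 reads in endoderm and 0 in mesoderm and epiblast.

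*Trf* encodes transferrin and lies on chromosome 9 from 103204001 to 103230444 (GRCm38, minus strand). It had 17139 reads in endoderm, against 22 in mesoderm and 42 in epiblast, giving an RPKM of 176.4, 0.231 and 0.422. Endoderm stood alone, and the other layers lay among the lowly expressed genes, at rank 12985 of 16201 in mesoderm. *Trf* was 764-fold higher in endoderm than in mesoderm (95% interval 504 to 1219) and 418-fold higher than in epiblast (309 to 581). Reads covered 99.8% of the *Trf* length in endoderm, against 57.6% in mesoderm and 63.4% in epiblast. The exons of *Trf* overlap those of *Gm20425* on the same strand.

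The few *Trf* reads outside endoderm can be set beside the visceral endoderm markers. The RPKM of *Trf* in mesoderm was 0.131% of that in endoderm, and the 9 markers had from 0.0334% to 0.292% with a median of 0.0494%. In epiblast *Trf* had 0.239%, and the markers had from 0.0150% to 0.242% with a median of 0.0384%. *Trf* thus lay inside the range of the markers but above their median in both layers. Whether these reads came from carried-over endoderm cells was not tested.

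*Tfrc* encodes the transferrin receptor (chromosome 16, 32608920 to 32632794, plus strand), which binds transferrin at the cell surface. It ran against *Trf*, with 3273 reads in endoderm, then 4470 in mesoderm and 6558 in epiblast, for an RPKM of 16.0, 22.2 and 31.2. The order epiblast, mesoderm, endoderm held beyond counting error at each step. Epiblast was 1.95-fold higher than endoderm (95% interval 1.87 to 2.04), just short of Fold Change>2, and *Tfrc* was not called in any pair. When the libraries were scaled to the same upper quartile this fold was 2.14 and *Tfrc* was called higher in epiblast. Mesoderm was 1.39-fold higher than endoderm and 1.40-fold lower than epiblast. The ratio of *Trf* to *Tfrc* in RPKM was 11.0 in endoderm, against 0.0104 in mesoderm and 0.0135 in epiblast.

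*Slc11a2* encodes DMT1, which moves ferrous iron out of endosomes (chromosome 15, 100387898 to 100425072, minus strand). With an RPKM of 13.8 in endoderm, then 9.68 in mesoderm and 9.73 in epiblast, from 2519, 1729 and 1817 reads, it was the most even of the uptake genes. Endoderm was 1.43-fold above mesoderm and 1.42-fold above epiblast and was not called. Mesoderm and epiblast did not differ beyond counting error, at a fold of 1.01 with an interval of 0.941 to 1.07. An exon of *Gm5475* on the other strand overlaps the gene.

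*Slc39a14* encodes ZIP14, a plasma membrane carrier of zinc, manganese and iron that is not bound to transferrin (chromosome 14, 70303469 to 70351425, minus strand). It had 2009 reads in endoderm, against 691 in mesoderm and 980 in epiblast, giving an RPKM of 9.79, 3.43 and 4.66. Endoderm was highest, by 2.85-fold over mesoderm (95% interval 2.61 to 3.11) and by 2.10-fold over epiblast (1.95 to 2.27), and both pairs were called. The call against epiblast was lost after scaling to the same upper quartile (1.92-fold) and after adding 1 to each RPKM (1.91-fold), and both calls were lost with RPKM>10 required.

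*Fth1* encodes the heavy chain of ferritin (chromosome 19, 9980598 to 9985098, plus strand). It had 152033 reads in endoderm, then 30730 in mesoderm and 21193 in epiblast, giving an RPKM of 4214.7, 868.7 and 573.0. Only 1 gene had a higher RPKM in endoderm, where *Fth1* ranked 2 of 16385, while it ranked 92 in mesoderm and 125 in epiblast. It took 0.365% of the reads counted in endoderm, with an exact 95% binomial interval of 0.363% to 0.367%, against 0.0752% in mesoderm and 0.0496% in epiblast. *Fth1* was 4.85-fold higher in endoderm than in mesoderm (95% interval 4.79 to 4.91) and 7.35-fold higher than in epiblast (7.25 to 7.46). Mesoderm was 1.52-fold above epiblast and was not called.

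*Ftl1* encodes the ferritin light chain (chromosome 7, 45457944 to 45459884, minus strand). Its 70245 reads in endoderm, against 40109 in mesoderm and 43400 in epiblast, gave an RPKM of 1710.3, 995.8 and 1030.7. It was highest in endoderm too, but by 1.72-fold over mesoderm and 1.66-fold over epiblast, and it was not called in any pair. Mesoderm and epiblast were within 1.04-fold of each other.

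Ferritin genes have near-identical copies elsewhere in the genome, and the deposited counts are of uniquely mapped reads. Of the 50-base windows of the first annotated *Ftl1* coding transcript, 73.4% also occurred, letter for letter, in annotated transcripts of 14 other loci, *Ftl1-ps1* first among them, and of its 100-base windows 59.3% did. For *Fth1* these shares were 6.59% and 0.964%, from *Gm6977* alone. Reads nevertheless covered at least 97.46% of the *Ftl1* length in each library, and *Ftl1-ps1* was not listed. Where reads matching both loci were dropped as not unique, the level of *Ftl1* is too low by an amount not known here. In the 1 transcript searched for each, the other 8 iron genes shared at most 0.504% of the 50-base windows with other loci and none of the 100-base windows. That transcript had 2098 bases for *Slc39a14*, against a deposited gene length of 4927, and 3025 for *Slc11a2*, against 4373. Part of the counted length of these genes was therefore not searched. Exons of *Gm10252* (other strand) and *Gm22133* (same strand) overlap *Ftl1*. Of 10 further ferritin loci looked for, *Fthl17f* (as *Gm5635*) had 2 reads in epiblast and none elsewhere, and *Ftl2*, *Ftl1-ps1*, *Ftl1-ps2*, *Fth-ps2*, *Fthl17*, *Fthl17a*, *Fthl17b*, *Fthl17c* and *Fthl17d* were not listed.

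The ratio of *Fth1* to *Ftl1* was highest in endoderm and lowest in epiblast. Per length, *Fth1* stood at 2.46 times *Ftl1* in endoderm, 0.872 in mesoderm and 0.556 in epiblast. Heavy chain RPKM was 71.1% of the ferritin sum in endoderm, 46.6% in mesoderm and 35.7% in epiblast. Both measures take the *Ftl1* level as deposited. If it were 2.46 times as high the ratio in endoderm would be 1, so which chain was the more abundant there is not settled by them. In mesoderm and epiblast the RPKM of *Ftl1* already exceeded that of *Fth1*, and a higher *Ftl1* level would keep that order. The sum of both RPKM values was 5925 in endoderm, then 1864 in mesoderm and 1604 in epiblast. *Tfrc* stood at 2.70 RPKM per 1000 of ferritin in endoderm, 11.9 in mesoderm and 19.5 in epiblast, so the receptor and the ferritin sum ran in opposite order across the layers.

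**Figure D3:**
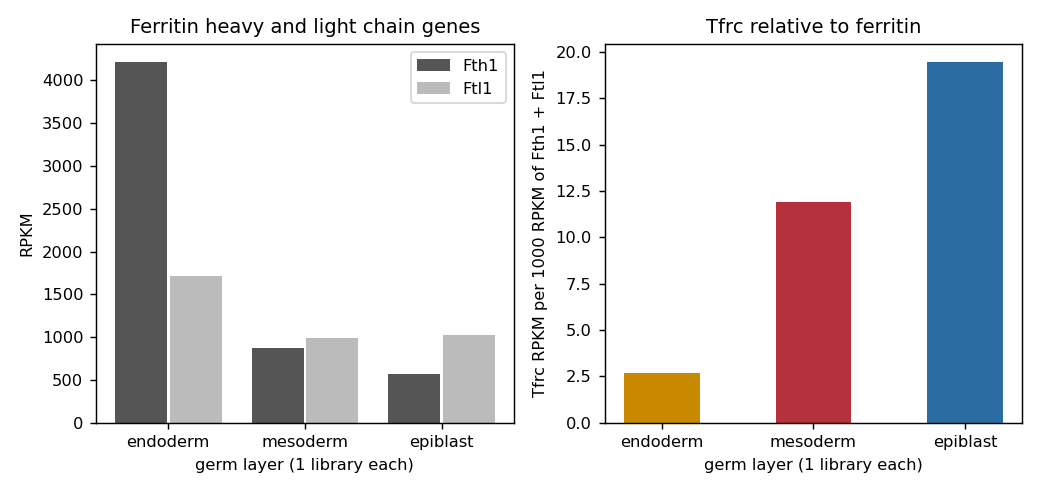
Left, bars give the RPKM of Fth1 and Ftl1 in the library of each germ layer; right, bars give the RPKM of Tfrc for each 1000 RPKM of both ferritin genes, without error bars because each layer is 1 library. As deposited, the ratio of Fth1 to Ftl1 falls from 2.46 in endoderm to 0.556 in epiblast, with Ftl1 possibly undercounted in each layer, and Tfrc relative to ferritin is lowest in endoderm (2.70) and highest in epiblast (19.5).

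*Hmox1* encodes haem oxygenase 1, the inducible enzyme that opens haem and frees its iron (chromosome 8, 75093621 to 75100589, plus strand). It had 2628 reads in endoderm, against 1074 in mesoderm and 1126 in epiblast, giving an RPKM of 38.6, 16.1 and 16.1. Endoderm was 2.40-fold above mesoderm (95% interval 2.23 to 2.58) and 2.39-fold above epiblast (2.23 to 2.57). Mesoderm and epiblast did not differ beyond counting error, with an interval of 0.922 to 1.09 for their fold. *Hmox2*, the constitutive form, had an RPKM of 38.8 in endoderm, then 34.2 in mesoderm and 31.0 in epiblast and was not called.

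*Slc40a1* encodes ferroportin (chromosome 1, 45908068 to 45926523, minus strand). With 2350 reads in endoderm, against 30 in mesoderm and 75 in epiblast, the gene had an RPKM of 16.7, 0.217 and 0.520. It was 76.8-fold higher in endoderm than in mesoderm (95% interval 53.7 to 114.1) and 32.1-fold higher than in epiblast (25.5 to 41.0). Next to *Trf* it had the largest fold of the iron genes. Its RPKM in mesoderm was 1.30% and in epiblast 3.11% of that in endoderm, above each of the 9 visceral endoderm markers in those layers. Epiblast exceeded mesoderm by 2.39-fold (1.55 to 3.78), and the FDR by the Audic and Claverie exact test was 8.47e-05, at levels too low for the RPKM criterion. The ratio of *Slc40a1* to *Slc11a2* in RPKM was 1.21 in endoderm, then 0.0224 in mesoderm and 0.0534 in epiblast.

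*Heph* encodes hephaestin, a membrane ferroxidase that works beside ferroportin (chromosome X, 96455359 to 96574485, plus strand). It did not follow ferroportin, with 273 reads in endoderm, against 663 in mesoderm and 903 in epiblast, for an RPKM of 1.40, 3.46 and 4.51. Epiblast was 3.23-fold above endoderm (95% interval 2.81 to 3.71) and mesoderm 2.48-fold above it (2.15 to 2.86). As no layer reached RPKM>5, *Heph* was not called, and with RPKM>1 it was called in both pairs. *Cp* encodes ceruloplasmin, the ferroxidase of plasma (chromosome 3, 19957054 to 20009145, plus strand). It had 2 reads in endoderm and was not listed in mesoderm or epiblast, where a count of 0 allows up to 3 reads, so no fold is given. *Hephl1*, a related ferroxidase, was not listed in any library. *Hsf3* on the other strand overlaps exons of *Heph*, and *Hps3* those of *Cp*, and whether counting used the strand is not given in the sources used here.

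**Figure D4:**
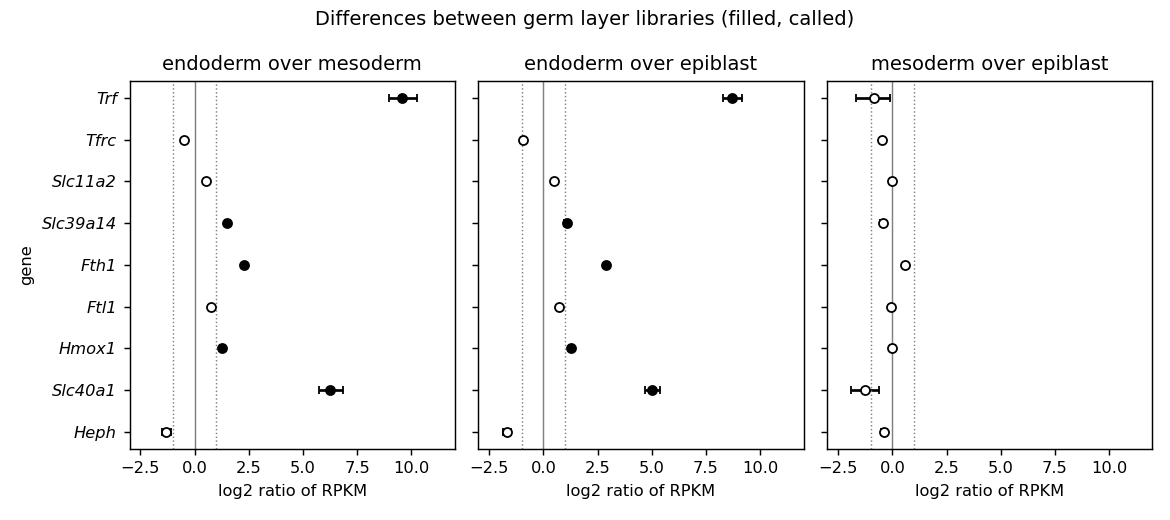
Log2 ratio of RPKM between 2 libraries for 9 iron genes (Cp has too few reads), with 95% exact intervals for counting error, a line at 0 and dotted lines at a fold of 2. Filled points were called; Heph lies beyond the fold of 2 against endoderm but below RPKM 5, and the mesoderm and epiblast panel holds no filled point.

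Beyond the 10 genes, 87 other genes of iron and haem handling were listed by function, and 71 of them had reads. Between endoderm and mesoderm 16 were called higher in endoderm and 0 higher in mesoderm, of 52 with RPKM>5, beside the background of 14.4% and 8.56%. Between endoderm and epiblast 19 were called higher in endoderm and 0 higher in epiblast, of 50, beside 15.7% and 8.94%. Counts for the smaller lists below are of all their genes, for which the background of genes with a read was 7.44% higher in endoderm than in mesoderm and 8.02% higher than in epiblast. Between mesoderm and epiblast 2 were called higher in mesoderm and 1 in epiblast, of 45, beside 5.30% and 5.02%, so these counts did not exceed the background. The median log2 ratio over list genes with RPKM>1 was 0.40 for endoderm to mesoderm and 0.58 for endoderm to epiblast, against -0.10 and -0.08 over all genes. *Cubn* and *Amn* of this list are also among the visceral endoderm markers.

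The list of other iron and ferritin uptake, mostly endocytic receptors, had the largest median log2 ratio, 4.90 for endoderm to mesoderm and 5.48 for endoderm to epiblast. Of its 8 genes, 5 were called higher in endoderm in each comparison with it. *Cubn*, whose product cubilin takes up transferrin and many other ligands, had an RPKM of 523.9 in endoderm, then 0.196 in mesoderm and 0.126 in epiblast. *Amn*, its membrane partner, had 219.0, 0.639 and 0.403. *Timd2*, a receptor for heavy chain ferritin, had 1079 reads in endoderm, against 6 in mesoderm and 2 in epiblast, a 553-fold ratio to epiblast with an interval of 153 to 4573. *Slc39a8*, the carrier closest to *Slc39a14*, had an RPKM of 153.4 in endoderm, then 19.5 in mesoderm and 5.49 in epiblast, more than *Slc39a14* in each. *Lrp2*, the endocytic receptor megalin, had 41.7, 2.55 and 9.26 and was the 1 list gene called higher in epiblast than in mesoderm. In the transferrin cycle 3 of 12 genes were called, each higher in endoderm, namely *Exoc6* (34.7 in endoderm, against 4.43 in mesoderm and 5.76 in epiblast), *Snx3* (285.9, 99.7 and 95), which sorts the transferrin receptor, and *Mcoln1* (29.1, 11.5 and 11.7), an endolysosomal channel. Of all genes with a read 7.44% were called higher in endoderm than in mesoderm and 8.02% higher than in epiblast. Among genes with RPKM>5, which in this list only the 3 called genes reached, these shares were 14.4% and 15.7%. With an assumed coefficient of 0.2 *Mcoln1* lost both calls and *Snx3* the one against mesoderm. *Steap3*, the endosomal reductase of the transferrin cycle, had an RPKM of 0.779, 1.60 and 3.01 and was not called. Its relatives *Steap2* (3.67, 0.974 and 0.620) and *Steap1* (2.84, 1.21 and 0.751) were highest in endoderm instead and were not called either, each below RPKM 5.

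No sensor of iron passed the criteria. *Aco1* (iron regulatory protein 1) had an RPKM of 34.3 in endoderm, then 29.9 in mesoderm and 22.8 in epiblast, and *Ireb2* (iron regulatory protein 2) had 26.9, 33.6 and 30.7. *Fbxl5*, which marks *Ireb2* protein for degradation when iron is present, had 24.2, 18.7 and 18. *Ncoa4*, the receptor that delivers ferritin to lysosomes, was the 1 called gene of the 7 in its list, at 2.26-fold between endoderm (58.9) and epiblast (26.0), a call lost with an assumed coefficient of 0.2. Of 14 genes for mitochondrial iron and iron-sulfur clusters, 13 had reads and 0 were called in any pair.

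Haem genes were called in part, and toward endoderm. In haem synthesis *Fech*, *Uros* and *Cpox* were called between endoderm and epiblast, 3 of 9, and *Fech*, which puts iron into the ring, had the largest fold, 3.45 (23.2 in endoderm, against 8.76 in mesoderm and 6.73 in epiblast). *Uros* and *Cpox* lost this call with an assumed coefficient of 0.2. *Alas2*, the erythroid form of the first enzyme, had 21 reads in endoderm, then 120 in mesoderm and 43 in epiblast. Among 10 genes of haem transport and breakdown, 3 were called between endoderm and mesoderm and 2 between endoderm and epiblast. The background was 7.44% and 8.02% of all genes with a read, and 14.4% and 15.7% where RPKM>5 was required. *Flvcr2* (listed as *Mfsd7c*) had an RPKM of 5.71, 0.171 and 0.279, *Abcg2* had 69.0, 27.7 and 14.3, and *Blvrb* had 14.6, 6.23 and 8.93. With an assumed coefficient of 0.2 *Abcg2* and *Blvrb* lost the call against mesoderm. Of 8 regulators of *Hmox1* and ferritin transcription, 3 were called between endoderm and epiblast. These were *Mafk* at 3.70-fold, *Keap1* at 2.21-fold and *Nfe2l2* at 2.10-fold. The background there was 8.02% of all genes with a read, and 15.7% where RPKM>5 was required. *Nfe2l2* lost the call against epiblast under upper quartile scaling, and both *Keap1* and *Nfe2l2* lost it with an assumed coefficient of 0.2. Between endoderm and mesoderm only *Mafk* was called, at 2.94-fold, and it lost that call with the same coefficient. *Nfe2l2* encodes NRF2, an activator of *Hmox1*, and had an RPKM of 55.6 in endoderm, against 41.5 in mesoderm and 26.5 in epiblast. *Bach1*, the haem-sensing repressor of *Hmox1*, had 11.8, 10.7 and 8.05 and was not called.

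Hepcidin, the hormone that removes ferroportin, was not listed (*Hamp* and *Hamp2*), but ligands that drive it in the liver were. *Bmp6* had an RPKM of 7.63 in endoderm, then 2.87 in mesoderm and 0.330 in epiblast, and *Bmp2* had 24.8, 13.0 and 0.489, a 50.7-fold difference between endoderm and epiblast (95% interval 38.6 to 67.9). *Id1*, a BMP target in many tissues, was 2.63-fold higher in endoderm than in mesoderm. In the list for hepcidin, 2 of 9 genes were called in each comparison with endoderm. The background was 7.44% and 8.02% of all genes with a read, and 14.4% and 15.7% where RPKM>5 was required. Both calls against mesoderm, of *Bmp6* and *Id1*, were lost with an assumed coefficient of 0.2. *Hjv* (listed as *Hfe2*) had 4 reads in endoderm, against 27 in mesoderm and 87 in epiblast, and *Tfr2* (listed as *Trfr2*) had 4, 18 and 34.

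**Figure D5:**
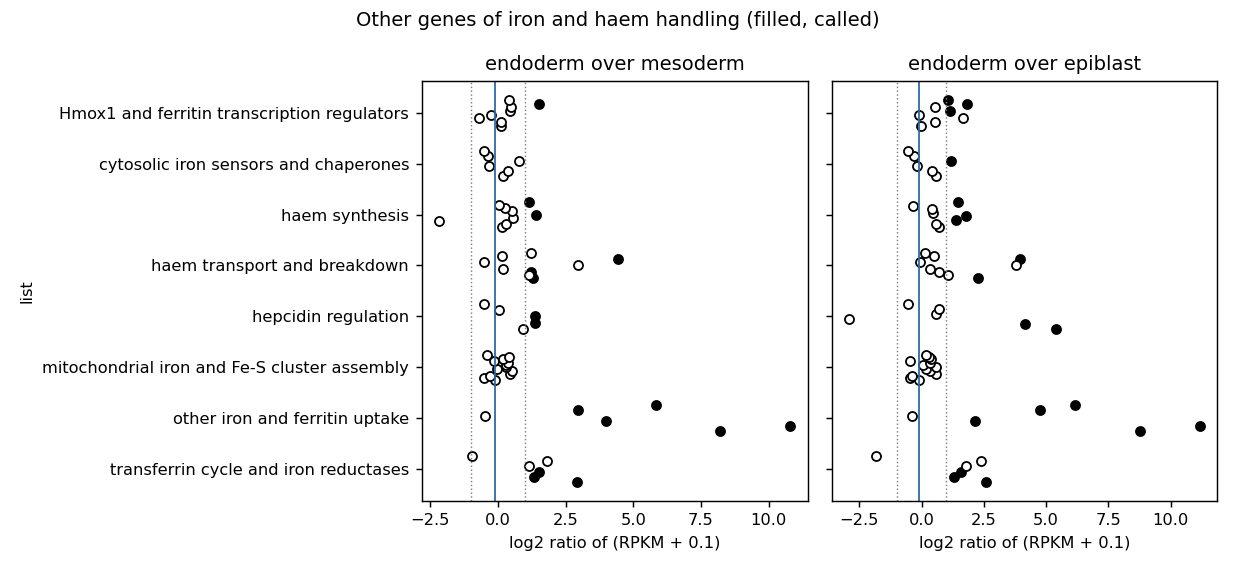
Log2 ratio of (RPKM + 0.1) for each list gene with RPKM>1 in either library, by list, for endoderm over mesoderm and endoderm over epiblast, with called genes filled, dotted lines at a fold of 2 and a blue line at the median of all such genes. Filled points lie on the endoderm side, the farthest in the uptake list (Cubn), and the mitochondrial list has none.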

How the data were processed

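The authors sequenced total RNA of each germ layer in paired ends (Illumina HiSeq). The authors deposited, per gene, the count of uniquely mapped reads without normalization, the gene length, the percent of that length covered, and RPKM. The deposited RPKM follows from count, length and the total count to within a relative difference of 2.03e-07. The submitters' processing notes name TopHat with mm10 and mm9; aligner, annotation and counter of these tables are not given in the sources used here. The authors' columns hold no comparisons.

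The calling criteria are those of the study. FDR is Benjamini-Hochberg over all genes with a read in either library, and adjusted p-values come from the Audic and Claverie exact test, two-sided. Genes with 0 reads were set to 3 for folds. Intervals are exact (Clopper-Pearson). With 1 library per layer, dispersion cannot be estimated and no quasi-likelihood test or DESeq2 could be fitted; edgeR 4.0.16 (R 4.3.3) was run with an assumed coefficient of variation. Symbols were matched to the RefSeq synonyms of GRCm38.p6, positions and transcripts to GENCODE M21. The iron genes, the other lists and the rule for naming genes were chosen with earlier results of these data known. The rule names all 10 genes, the 3 called genes with the largest fold in each list, 6 genes tied to a role of an iron gene, and for *Fth1* and *Trf* the 3 genes of nearest pattern; *Slc39a8*, *Lrp2*, *Alas2*, *Bach1*, *Hjv*, *Tfr2*, *Steap1*, *Steap2*, *Hephl1* and hepcidin were added after their values were seen. Values were computed with SciPy 1.17.1, numpy 2.4.6 and pandas 2.3.3 in Python 3.11.15 and drawn with matplotlib 3.10.9. Alternative splicing and the microarray were not analysed here.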

Additional observations from a re-analysis of the deposited data

How the results depend on the processing

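The 10 iron genes kept 5 calls, the same genes each time, between endoderm and mesoderm under the median of ratios, the same upper quartile, TMM, Benjamini-Yekutieli adjustment and no FDR criterion. Against epiblast the same held, except that the upper quartile called *Tfrc* in place of *Slc39a14*. Fold Change>4 left 3 iron genes in both pairs (*Trf*, *Slc40a1* and *Fth1*), as did edgeR's exact test with an assumed coefficient of variation of 0.2, and a coefficient of 0.4 left 2 (*Trf* and *Slc40a1*). Without an RPKM minimum 1 iron gene, *Slc40a1*, was called between mesoderm and epiblast. For the 87 other genes, no RPKM minimum gave 26 calls for endoderm and mesoderm, 29 for endoderm and epiblast, and 8 for the remaining pair, where RPKM>1 also gave 8. In the same order Fold Change>4 gave 7, 10 and 1, a coefficient of 0.4 gave 5, 7 and 1, and one of 0.2 gave 7 between endoderm and mesoderm. The upper quartile lost *Nfe2l2* against epiblast, and the median of ratios and TMM gained *Bmp2* against mesoderm. The median of ratios and TMM moved all log2 ratios of endoderm to mesoderm by 0.11, and the upper quartile moved those of endoderm to epiblast by -0.13. Of 108 log2 ratios of single iron genes under another scaling or with 1 added to RPKM, 105 kept sign and call, 2 lost the call and 1 gained it, and 0 changed sign. No replicate could be left out, and no paired analysis was possible because each layer is 1 library.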

Other observations

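Genes were ranked by how near their pattern over the 3 libraries lay to that of *Fth1* and *Trf*, among 1996 genes with RPKM>50 in at least 1 library, by the Euclidean distance of the centred log2(RPKM + 0.1) values. With 3 values per gene this describes shape only. Nearest to *Fth1* were *Cd63*, a tetraspanin of late endosomes (RPKM 244.1 in endoderm, 46.7 in mesoderm and 30.7 in epiblast), *Sccpdh* (70.9, 13.8 and 10.2) and *Nid2*, a basement membrane nidogen (112.7, 25.6 and 17.2). Nearest to *Trf* were *Rbp4*, which carries retinol in plasma and is one of the visceral endoderm markers above (738.5, 1.48 and 1.79), *Fgb*, a fibrinogen chain (71.1, 0.0311 and 0.0446), and *Folr1*, a folate receptor (129.5, 0.156 and 0.481).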
